A study of Homo sapiens with 9 samples.

Results

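Genes of MHC class II antigen presentation were followed in H1650, an established human line of non-small cell lung cancer, after knockdown of ENAH, the gene that encodes the actin regulator hMENA. The set was chosen by name and holds 10 genes: the class II chains HLA-DRA and HLA-DQB1, the peptide editor chains HLA-DMA and HLA-DMB, the invariant chain CD74, the protease CTSS, the coactivator CIITA, and the promoter-binding factors RFX5, RFXAP and RFXANK. Of these 10 genes, 9 were among the 16630 genes of the expression table, and 8 passed the filter on low values (an average level of 0.5 FPKM or more in the 9 libraries, and a value in each of them). HLA-DMB fell under that filter, so its levels are given without a test, and HLA-DMA was not analysed here.

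The siMENA group received a pool of siRNA duplexes against ENAH transcripts in general. In the siMENA11a group the siRNA mix was directed at exon 11a, which is found in the epithelial isoform hMENA11a. The control was a nontargeting siRNA pool. All groups were H1650 cells transfected at 20 nM with the same lipid reagent and collected on day 3, with 3 libraries of ribosome-depleted, stranded total RNA in each, described by the submitters as biological replicates. No cytokine is named in the labels for any group, and the cells of every library come from 1 line.

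MHC class II molecules are pairs of an alpha and a beta chain that carry peptides from the endosome to the cell surface, where CD4+ T cells read them. In the endoplasmic reticulum the invariant chain, CD74, fills the peptide groove and steers the pair to the endosome. There cathepsin S, the product of CTSS, trims CD74 to a short fragment, and HLA-DM, a pair of HLA-DMA and HLA-DMB, exchanges that fragment for peptide. The genes for most of these proteins share a promoter module of an X and a Y box. The RFX complex of RFX5, RFXAP and RFXANK binds the X box, NF-Y binds the Y box, and CIITA, which does not bind DNA itself, docks on this assembly and sets the level of transcription. In most cells CIITA needs interferon gamma, but epithelial cells of the lung alveolus can carry class II without it.

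The promoter module can be read in the reference sequence of the members. RefSeq promoter windows of build GRCh38.p14, each from 250 bases before to 50 bases after a gene's start, were at hand for 7 of the 10 members. A word for the core of the X box and the cyclic AMP element beside it (AGNNAC followed after 3 bases by TGA, in the direction of the gene) was searched for upstream of a word for the Y box (ATTGG or CCAAT), with 10 to 30 bases between them. This word pair was written after the promoters had been read. Both words in that order were found for HLA-DQB1, HLA-DMA and CD74, and for HLA-DRB1 among the other class II chains shown here. They are printed from the minus strand, 5′ to 3′, with the X word and the Y word in capitals, to show the module side by side: the Y word is ATTGG in the 3 HLA genes and CCAAT, the same letters on the other strand, in CD74, which also has fewer bases between the words.
HLA-DQB1, chr6:32666731-32666788, 21 bases between the words: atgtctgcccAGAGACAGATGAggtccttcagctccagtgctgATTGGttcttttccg
HLA-DMA, chr6:32953162-32953220, 22 bases between the words: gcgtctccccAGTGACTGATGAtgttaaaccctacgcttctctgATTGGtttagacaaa
HLA-DRB1, chr6:32589880-32589937, 21 bases between the words: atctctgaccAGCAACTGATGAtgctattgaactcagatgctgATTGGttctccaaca
CD74, chr5:150412949-150413001, 16 bases between the words: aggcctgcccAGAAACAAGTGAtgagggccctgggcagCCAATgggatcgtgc
Among 35116 promoter windows of the same length, the X word was found in 3.11%, the Y word in 34.6% and both in this order and distance in 0.122%, which is 43 windows. These shares, and the window counts that follow, accept the words on either strand, a looser rule than that of the printed matches. The HLA-DMB window held both words but not in this order and distance, of 3 RFX5 windows 1 held the X word and 1 the Y word, and the windows of RFXAP and RFXANK held neither. A match is a description of the letters only.

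Knockdown was seen in the measured level of ENAH. ENAH had 4.43, 5.79 and 5.57 FPKM in siMENA libraries, 9.98, 11.0 and 10.3 FPKM in siMENA11a libraries, and 26.1, 30.04 and 26.1 FPKM in control libraries, with no overlap between groups. FPKM scales the fragments of a gene by its length and by the library total, so levels can be set beside each other between genes, and the ENAH level sums over its isoforms. The mean was 19.2% of control in siMENA (limma adjusted p = 6.41e-06) and 38.1% of control in siMENA11a (6.29e-05). Epithelial markers were abundant in every library, with EPCAM at 134.9 to 167.2 FPKM, although the surfactant gene SFTPB stayed at 0.0759 to 0.305 FPKM. Of 14 markers of leukocytes and antigen-presenting cells, 4 were listed (CD14, CD68, CD79A and LYZ), with a summed level of 13.7 to 16.8 FPKM in siMENA, 15.1 to 20.4 FPKM in siMENA11a and 14.6 to 19.4 FPKM in control. Of these sums, CD68, a lysosomal protein, made up 10.5 to 13.7 FPKM in each library, while the B cell gene CD79A and LYZ reached no more than 0.226 FPKM. The table has no read counts, so the depth behind each value is unknown.

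Class II genes covered a wide range of levels in these cells. CD74 was the most abundant member, at the 89th percentile of 15344 genes by mean FPKM, followed by RFXANK at percentile 79.4, RFX5 at 71.4 and HLA-DQB1 at 69.1. HLA-DRA stood at percentile 32.0, CIITA at 28.5, CTSS at 21.8, RFXAP at 15.6 and HLA-DMB at 7.94. The order of the mean levels was the same in siMENA and control libraries, and in siMENA11a libraries HLA-DQB1 stood above RFX5. Neighbours in this order had ranges that did not overlap, except HLA-DRA and CIITA in siMENA and in control. The chain HLA-DRA was thus far below the invariant chain that accompanies it, and the HLA-DM chain measured was the least abundant member.

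**Figure D1:**
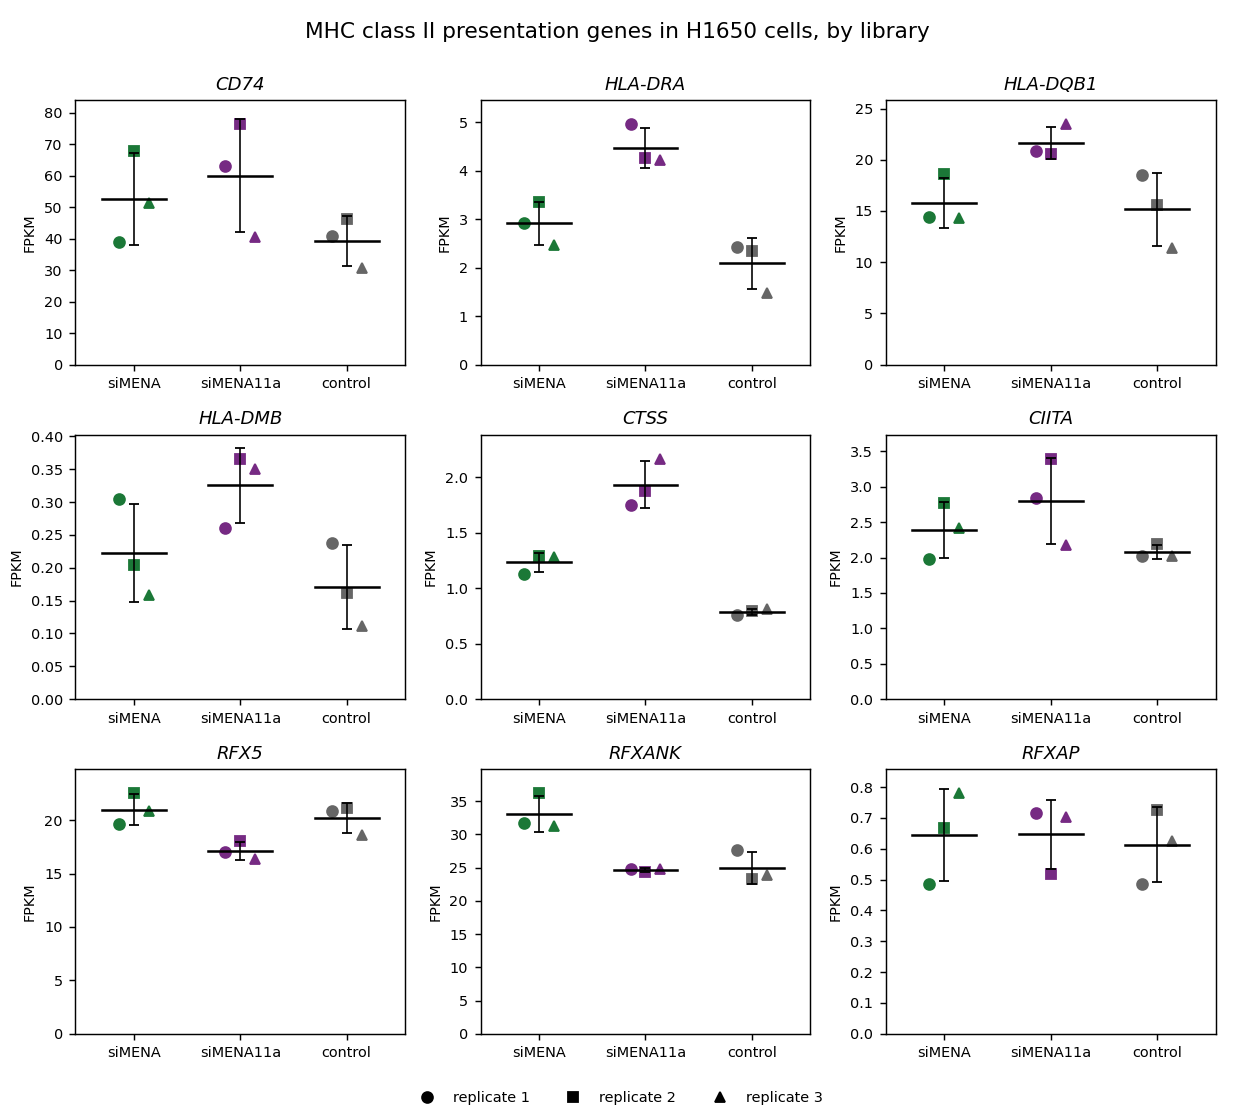
Level in FPKM (vertical axis, 1 panel per gene, each starting at 0) of the 9 measured class II genes in siMENA, siMENA11a and control libraries. Circles, squares and triangles are replicates 1, 2 and 3, lines are means and bars are SD (n = 3). HLA-DRA and CTSS stand highest in siMENA11a without overlap, RFXANK stands highest in siMENA, and CD74 and CIITA have their highest square in every group.

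HLA-DRA, the alpha chain of HLA-DR, was higher after the exon 11a siRNAs. It had 4.96, 4.26 and 4.22 FPKM in siMENA11a libraries, against 2.43, 2.35 and 1.49 FPKM in control libraries. In siMENA libraries it had 2.92, 3.36 and 2.47 FPKM. Every siMENA11a library lay above every siMENA library, and every siMENA library above every control library, although the lowest siMENA and the highest control library nearly touched. The mean was 4.48 ± 0.416 FPKM in siMENA11a, 2.92 ± 0.447 in siMENA and 2.09 ± 0.523 in control (SD, n = 3 each), so siMENA11a stood at 2.14 times control. Every fold change here is a difference in log2(FPKM + 1), a scale on which low genes appear to change less than they do. On it HLA-DRA rose by 0.84 in siMENA11a against control (SE 0.13, limma with Benjamini-Hochberg adjustment over all 13273 genes tested, adjusted p = 0.00285). The adjusted p stayed between 0.00564 and 0.0137 when each library of the 2 groups was left out in turn. HLA-DRA also rose in siMENA11a against siMENA, by 0.49 (adjusted p = 0.018), but this call was lost without siMENA replicate 3 (0.0634) or without siMENA11a replicate 1 (0.0652). In siMENA against control the difference was 0.35 (95% interval 0.05 to 0.65, adjusted p = 0.097). With the replicate number as a block, the same difference had an adjusted p of 0.0325. The comparisons share libraries, so their values are not independent of each other. In bulk RNA, more cells with class II and more class II RNA per cell cannot be told apart.

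HLA-DQB1, the beta chain of HLA-DQ, was the most abundant class II chain measured. Its levels were 20.9, 20.6 and 23.5 FPKM in siMENA11a libraries, 14.4, 18.6 and 14.3 FPKM in siMENA libraries and 18.5, 15.6 and 11.4 FPKM in control libraries. The siMENA11a libraries lay above all others, whereas siMENA and control libraries were interleaved. HLA-DQB1 rose by 0.51 in siMENA11a against control (SE 0.15, limma adjusted p = 0.0428), with means of 21.7 ± 1.57 FPKM in siMENA11a and 15.2 ± 3.60 FPKM in control (SD, n = 3 each). It rose by 0.44 in siMENA11a against siMENA (adjusted p = 0.0465), where siMENA had 15.8 ± 2.42 FPKM. Both calls lay close to the threshold of 0.05. The first was lost without siMENA11a replicate 1, 2 or 3 (0.0854, 0.0628 and 0.115) or control replicate 2 or 3 (0.0773 and 0.114), and the second without siMENA replicate 1 or 3 (0.138 and 0.131) or siMENA11a replicate 1, 2 or 3 (0.085, 0.0633 and 0.129). In siMENA against control the difference was 0.07 (95% interval -0.27 to 0.41, adjusted p = 0.786).

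The remaining class II chains were near the lower end of the table. HLA-DMB, the beta chain of the editor HLA-DM, had 0.26, 0.365 and 0.35 FPKM in siMENA11a libraries, 0.304, 0.204 and 0.159 FPKM in siMENA libraries, and 0.238, 0.162 and 0.111 FPKM in control libraries. All 3 siMENA11a libraries lay above the control libraries, and without the filter on low values the difference had a limma adjusted p of 0.0889. Of 12 other class II genes looked for, 4 were listed. HLA-DRB3, a second DR beta gene that only some haplotypes carry, had 1.44, 1.27 and 1.28 FPKM in siMENA11a libraries, 1.26, 1.70 and 0.962 FPKM in siMENA libraries and 0.874, 1.44 and 1.14 FPKM in control libraries, and no comparison passed. The main DR beta gene HLA-DRB1 ran from 0.104 to 0.244 FPKM in siMENA11a, 0.0509 to 0.0939 FPKM in siMENA and 0.0439 to 0.0695 FPKM in control. HLA-DPB1 ran from 0.103 to 0.120 FPKM in siMENA11a, 0.0764 to 0.0970 FPKM in siMENA and 0.0200 to 0.0695 FPKM in control. HLA-DQA1, the partner of HLA-DQB1, overlapped between all groups at 0.0421 to 0.271 FPKM. HLA-DRB1 and HLA-DQA1 were thus listed far below HLA-DRA and HLA-DQB1, while HLA-DRB3 lay closer to HLA-DRA.

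HLA genes are near-identical in sequence and differ between haplotypes, so the authors' assignment of fragments can split them, and levels of single chains are uncertain. The part of this in the spread within groups was not tested. HLA-C differed 112-fold between the lowest and the highest siMENA library, 509-fold within siMENA11a and 47.8-fold within control. HLA-B differed 39.0-fold within siMENA, 86.9-fold within siMENA11a and 1.50-fold within control. Within groups, HLA-DRA differed 1.18-fold to 1.63-fold and HLA-DQB1 1.14-fold to 1.63-fold. The low class II chains reached more, up to 2.36-fold for HLA-DRB1, 3.47-fold for HLA-DPB1 and 4.44-fold for HLA-DQA1. Of the members outside the HLA family, CD74 differed 1.50-fold to 1.87-fold within groups, CTSS 1.07-fold to 1.24-fold, RFX5 1.10-fold to 1.15-fold and RFXANK 1.02-fold to 1.19-fold.

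CTSS, the endosomal protease that makes the last cuts in CD74, separated all 3 groups and had the lowest adjusted p of the 8 members in the moderated F test of limma (0.000545). It had 1.75, 1.88 and 2.16 FPKM in siMENA11a libraries, 1.13, 1.29 and 1.28 FPKM in siMENA libraries, and 0.755, 0.792 and 0.810 FPKM in control libraries. No library of one group overlapped another group, with siMENA11a highest and control lowest. In siMENA11a the mean of 1.93 ± 0.211 FPKM was 2.46 times the control mean of 0.786 ± 0.0280 FPKM, and in siMENA the mean of 1.23 ± 0.0879 FPKM was 1.57 times control (SD, n = 3 each). CTSS rose by 0.71 in siMENA11a against control (SE 0.08, limma adjusted p = 0.000606) and by 0.39 in siMENA11a against siMENA (adjusted p = 0.0052). Both held whichever library of the compared groups was left out, with adjusted p up to 0.00439 and 0.0237. The rise of 0.32 in siMENA against control passed (adjusted p = 0.0252) but was lost without siMENA replicate 2 or 3 (0.0787 and 0.0655) or control replicate 1, 2 or 3 (0.0726, 0.0579 and 0.0679).

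CD74, by contrast, did not pass in any comparison. It had 63.0, 76.3 and 40.7 FPKM in siMENA11a libraries, 38.9, 67.8 and 51.2 FPKM in siMENA libraries, and 40.8, 46.4 and 30.8 FPKM in control libraries. The groups overlapped throughout, and replicate 2 was the highest library in each. Means were 60.01 ± 18.0 FPKM in siMENA11a, 52.6 ± 14.5 FPKM in siMENA and 39.3 ± 7.87 FPKM in control (SD, n = 3 each). The difference was 0.57 in siMENA11a against control (95% interval 0.02 to 1.12, limma adjusted p = 0.138) and 0.40 in siMENA against control (-0.16 to 0.95, adjusted p = 0.296). Between siMENA11a and siMENA it was 0.18 (-0.38 to 0.73, adjusted p = 0.618). Without siMENA11a replicate 3, the lowest of its group, the difference from control was 0.82 and passed (adjusted p = 0.0391).

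CIITA, the coactivator on which class II transcription depends, did not pass either. It had 2.84, 3.39 and 2.18 FPKM in siMENA11a libraries, 1.98, 2.78 and 2.41 FPKM in siMENA libraries and 2.02, 2.19 and 2.02 FPKM in control libraries. The control libraries were close to each other, and both knockdown groups spread above and around them. Means were 2.80 ± 0.609 FPKM in siMENA11a, 2.39 ± 0.401 FPKM in siMENA and 2.08 ± 0.0956 FPKM in control (SD, n = 3 each). The difference was 0.29 in siMENA11a against control (95% interval 0.01 to 0.57, limma adjusted p = 0.133), and it was 0.13 in siMENA against control (-0.15 to 0.41, adjusted p = 0.5). As for CD74, leaving out siMENA11a replicate 3 brought the first comparison past the threshold (0.42, adjusted p = 0.0421). In siMENA11a against siMENA the difference was 0.16 (-0.12 to 0.44, adjusted p = 0.349).

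The 3 subunits of the RFX complex differed in the comparisons in which they passed. RFXANK, its ankyrin-repeat subunit, had 31.8, 36.2 and 31.3 FPKM in siMENA libraries, against 27.7, 23.2 and 23.9 FPKM in control libraries. In siMENA11a libraries it had 24.8, 24.4 and 24.8 FPKM. The siMENA libraries lay above all others, and the siMENA11a libraries fell inside the control range. RFXANK rose by 0.39 in siMENA against control (SE 0.08, limma adjusted p = 0.00694), with means of 33.1 ± 2.67 FPKM in siMENA and 25.0 ± 2.41 FPKM in control (SD, n = 3 each). In siMENA11a, with a mean of 24.7 ± 0.229 FPKM, it fell by 0.41 against siMENA (adjusted p = 0.00256) and differed from control by -0.01 (95% interval -0.18 to 0.16, adjusted p = 0.927). The rise in siMENA was not past the threshold once replicate 2 was left out of all 3 groups (0.28, adjusted p = 0.0564), a setting chosen after the values were seen.

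RFX5, the large subunit that contacts the X box, had 17.1, 18.03 and 16.3 FPKM in siMENA11a libraries, 19.6, 22.5 and 20.9 FPKM in siMENA libraries and 20.9, 21.2 and 18.6 FPKM in control libraries. All 3 siMENA11a libraries lay below the other 6. RFX5 fell by 0.28 in siMENA11a against siMENA (limma adjusted p = 0.0127), with means of 17.1 ± 0.851 FPKM in siMENA11a and 21.0 ± 1.45 FPKM in siMENA (SD, n = 3 each), a call lost without siMENA replicate 2 (0.0519). Against control, at 20.2 ± 1.39 FPKM, the siMENA11a difference of -0.22 just missed the threshold (95% interval -0.38 to -0.07, adjusted p = 0.0504). It passed without siMENA11a replicate 2 (0.0467) or without control replicate 3 (0.0434). In siMENA against control RFX5 differed by 0.05 (adjusted p = 0.65). RFXAP, the remaining subunit, was listed at 0.717, 0.518 and 0.704 FPKM in siMENA11a libraries, 0.484, 0.667 and 0.779 FPKM in siMENA libraries and 0.485, 0.727 and 0.626 FPKM in control libraries. The RFXAP groups overlapped fully, with differences of 0.03 against control in both knockdowns and adjusted p from 0.872 to 0.979 over the 3 comparisons.

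**Figure D2:**
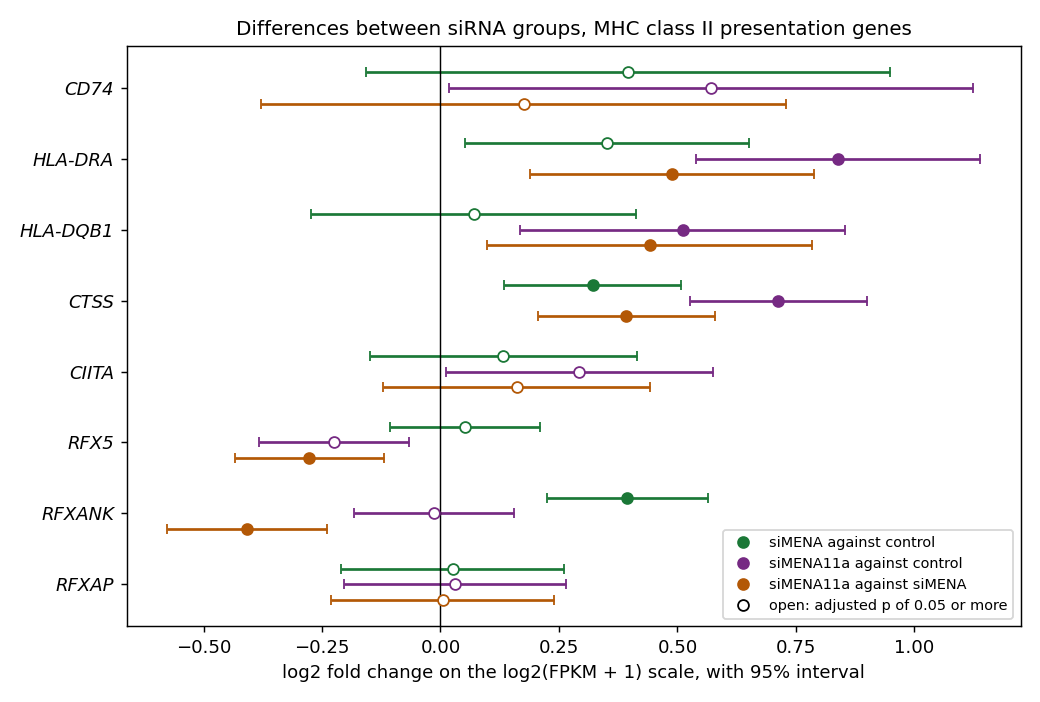
Difference in log2(FPKM + 1) (horizontal axis) of the 8 tested class II genes, for each knockdown against control and for siMENA11a against siMENA. Points are limma estimates, bars are 95% intervals, and open points have an adjusted p of 0.05 or more; HLA-DRA, HLA-DQB1 and CTSS are filled on the right side in both siMENA11a comparisons, and RFXANK is filled on the right in siMENA against control.

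Counted over the set, the 3 comparisons differed in which members passed. In siMENA11a against control, 3 of 8 tested members rose (HLA-DRA, HLA-DQB1 and CTSS) and limma called 0 as lower, with 1 (RFX5) lower at an unadjusted p under 0.05. Over all genes tested, 8.16% were called higher and 11.3% lower in that comparison. Of the 8 members, 2 rose in siMENA against control (CTSS and RFXANK) and 0 fell, also at an unadjusted p under 0.05, against 10.3% of all genes called higher and 8.24% lower. In siMENA11a against siMENA, 3 members rose (HLA-DRA, HLA-DQB1 and CTSS) and 2 fell (RFX5 and RFXANK), beside 14.4% of all genes called higher and 22.2% lower. The moderated F test over the 3 groups passed for 5 of 8 members, the same 5 genes, and for 40.3% of all genes. The median difference of the 8 members was 0.40 in siMENA11a against control, 0.23 in siMENA against control and 0.17 in siMENA11a against siMENA, where the medians of all genes tested were -0.01, 0.04 and -0.05. With 8 genes, 1 call more or less moves each of these shares widely.

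CD74 and CIITA varied together from library to library. The 12373 tested genes that averaged 1 FPKM or more were ranked, with small RNA genes and clone-based or similar names passed over. Of those kept, CIITA had the highest Pearson correlation with CD74 over the 9 libraries (r = 0.94, Spearman rho = 0.90). Without siMENA11a replicate 2 and control replicate 3, the libraries farthest from the median of CD74, r was 0.97 over 7 libraries. The deviations from the group means correlated at 0.93, so the likeness lay between replicates of one group as well as between groups. Next came MOCOS, a molybdenum cofactor sulfurase (r = 0.93), SHISA5 (0.93), the adhesion receptor ICAM1 (0.91) and PPFIBP1 (0.91). CIITA was not first of these 5 on the other measures: rho was 0.93 for PPFIBP1 and 0.92 for ICAM1, and the deviations correlated at 0.97 for MOCOS, 0.96 for SHISA5 and 0.94 for PPFIBP1. For CIITA the highest values were those of MOCOS (0.96), the endosomal channel TPCN1 (0.95), the MAX partner MXD1 (0.94), CD74 (0.94) and CALML4 (0.94). These genes were picked as the first by their correlation among so many, over 9 libraries of 1 cell line, and are given as a description. The other members followed CD74 less closely, with r of 0.69 for HLA-DRA, 0.57 for HLA-DQB1, 0.53 for CTSS, 0.20 for RFXANK and 0.07 for RFX5.

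Part of this shared variation went with replicate 2. CD74, CIITA and RFX5 had their highest value in replicate 2 of every group. So did CD14, a monocyte gene, at 7.21 FPKM in siMENA11a, 4.74 FPKM in siMENA and 5.46 FPKM in control, against 2.87 to 3.96 FPKM in the other 6 libraries. CD68 was also highest there, at 13.0, 11.8 and 13.7 FPKM, against 10.5 to 12.6 FPKM in the other 6. The other listed leukocyte markers did not share this. CD79A was lowest in replicate 2 of control (0.0992 FPKM). LYZ had no value in replicate 2 of siMENA11a and was lower in replicate 2 than in replicate 1 of siMENA. The collagen gene COL3A1, a fibroblast marker, had 1.90 FPKM in siMENA11a, 3.22 FPKM in siMENA and 2.24 FPKM in control in replicate 2, against 0.127 to 0.384 FPKM elsewhere. The endothelial marker PECAM1 was also highest there in every group, at no more than 0.0755 FPKM. COL1A1, VWF and CDH5 did not share this pattern, and all of them were lowest in replicate 2 of control (0.306, 0.0498 and 0.115 FPKM). The summed level of the 5 listed fibroblast and endothelial markers, of 7 looked for, ran from 0.838 to 2.97 FPKM in siMENA11a, 0.978 to 4.12 FPKM in siMENA and 0.908 to 2.77 FPKM in control, with COL3A1 making up most of the highest sum in each group. The part of these markers in the levels of CD74 and CIITA was not tested. Without replicate 2 in all 3 groups, CD74 and CIITA correlated at r = 0.91 over 6 libraries. The same 6 libraries kept the rise in siMENA11a against control for HLA-DRA (0.93, limma adjusted p = 0.0133) and for CTSS (0.73, 0.00939). They lost it for HLA-DQB1 in siMENA11a against control (0.58, 0.0824) and for CTSS in siMENA against control (0.31, 0.118). HLA-DRA, HLA-DQB1, HLA-DMB and CTSS were not highest in replicate 2 of every group.

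**Figure D3:**
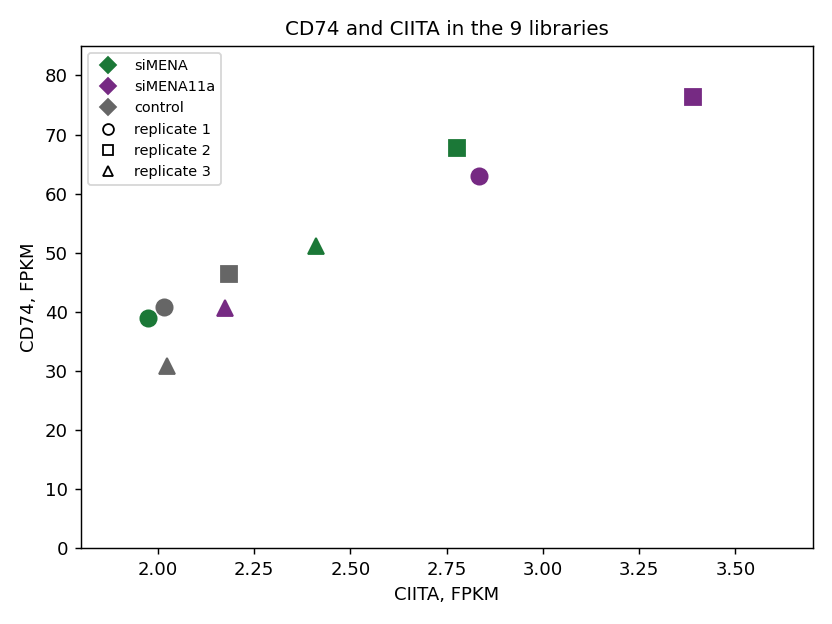
Level of CD74 (vertical axis, FPKM) against the level of CIITA (horizontal axis, FPKM) in the 9 libraries, coloured by group. Circles, squares and triangles are replicates 1, 2 and 3; the points rise together (Pearson r = 0.94, n = 9), and siMENA11a replicate 2 is highest on both axes.

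The route by which interferon gamma reaches CIITA was measured through 13 further genes. In siMENA11a against control, 5 of 13 rose and the other 8 did not pass, with a median difference of 0.15. In siMENA against control, 6 rose and 2 fell (median 0.19), and in siMENA11a against siMENA 3 rose and 1 fell (median 0.08). Among all genes tested, 8.16% were called higher and 11.3% lower in siMENA11a against control. The shares were 10.3% and 8.24% in siMENA against control, and 14.4% and 22.2% in siMENA11a against siMENA. The ligand-binding receptor chain IFNGR1 had 37.3 ± 2.41 FPKM in siMENA11a, 17.4 ± 2.86 FPKM in siMENA and 29.05 ± 3.24 FPKM in control (SD, n = 3 each). IFNGR1 fell by 0.72 in siMENA against control (limma adjusted p = 0.0029) and rose by 1.07 in siMENA11a against siMENA (0.000107), while its difference in siMENA11a against control was 0.35 (0.0536). IFNGR1 was thus lowest in siMENA, whereas CTSS and HLA-DRA were lowest in control.

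The inhibitors of that route differed between the knockdowns. SOCS1, which blocks the receptor's kinases, had 3.83 ± 0.379 FPKM in siMENA11a, 6.96 ± 1.52 FPKM in siMENA and 4.45 ± 0.632 FPKM in control. It fell by 0.71 in siMENA11a against siMENA (limma adjusted p = 0.0032) and rose by 0.54 in siMENA against control (0.0237), and this rise was lost without siMENA replicate 1 (0.0642), siMENA replicate 2 (0.069) or control replicate 3 (0.0879). SOCS3, a related inhibitor of cytokine receptors, had 15.3 ± 1.30 FPKM in siMENA11a, 7.03 ± 0.874 FPKM in siMENA and 11.9 ± 1.45 FPKM in control. SOCS3 fell by 0.68 in siMENA against control (0.00255) and rose by 1.03 in siMENA11a against siMENA (8.75e-05). Its rise of 0.35 in siMENA11a against control had an adjusted p of 0.0449 and was lost in 4 of the 6 settings that left out 1 library, at up to 0.152. IRF1, which acts on the CIITA promoter, rose by 0.35 in siMENA against control (0.0095) and by 0.26 in siMENA11a against control (0.034), the second call being lost without siMENA11a replicate 1 or 3 or control replicate 2 or 3, at up to 0.115.

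Besides CTSS, 15 genes for endosomal processing were tested. In siMENA11a against control 4 fell and the other 11 did not pass (median 0.03), in siMENA against control 2 rose and 4 fell (median -0.08), and in siMENA11a against siMENA 3 rose and 4 fell (median 0.12). The shares of all genes tested called higher and lower were 8.16% and 11.3%, 10.3% and 8.24%, and 14.4% and 22.2% in turn. CTSB, cathepsin B, averaged 25.5 FPKM in siMENA11a, 66.4 FPKM in siMENA and 62.4 FPKM in control, and fell by 1.34 in siMENA11a against siMENA (limma adjusted p = 1.45e-05). LGMN, an asparagine-specific endopeptidase that can start the breakdown of CD74, had 16.2 ± 0.441 FPKM in siMENA11a, 29.9 ± 0.700 FPKM in siMENA and 20.0 ± 0.632 FPKM in control (SD, n = 3 each). LGMN rose by 0.56 in siMENA against control (0.000122) but fell by 0.29 in siMENA11a against control (0.00416) and by 0.85 in siMENA11a against siMENA (5.12e-06).

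IFI30, a thiol reductase that unfolds antigens in the endosome, had 76.8 ± 8.50 FPKM in siMENA11a, 123.8 ± 10.6 FPKM in siMENA and 86.6 ± 1.46 FPKM in control. It rose by 0.51 in siMENA against control (limma adjusted p = 0.00359) and fell by 0.68 in siMENA11a against siMENA (0.000264). CTSL2, the name in the table for cathepsin V, averaged 20.6 FPKM in siMENA11a, 29.8 FPKM in siMENA and 28.2 FPKM in control, and fell by 0.43 in siMENA11a against control (0.00975), a call not kept when replicate 2 was left out of all groups (0.0602). CTSH fell by 0.31 in siMENA against control (0.0177), and this was lost without siMENA replicate 1 or 2 or control replicate 1 or 3, at up to 0.071. LGMN and IFI30 were thus highest in siMENA, whereas CTSS was highest in siMENA11a.

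**Figure D4:**
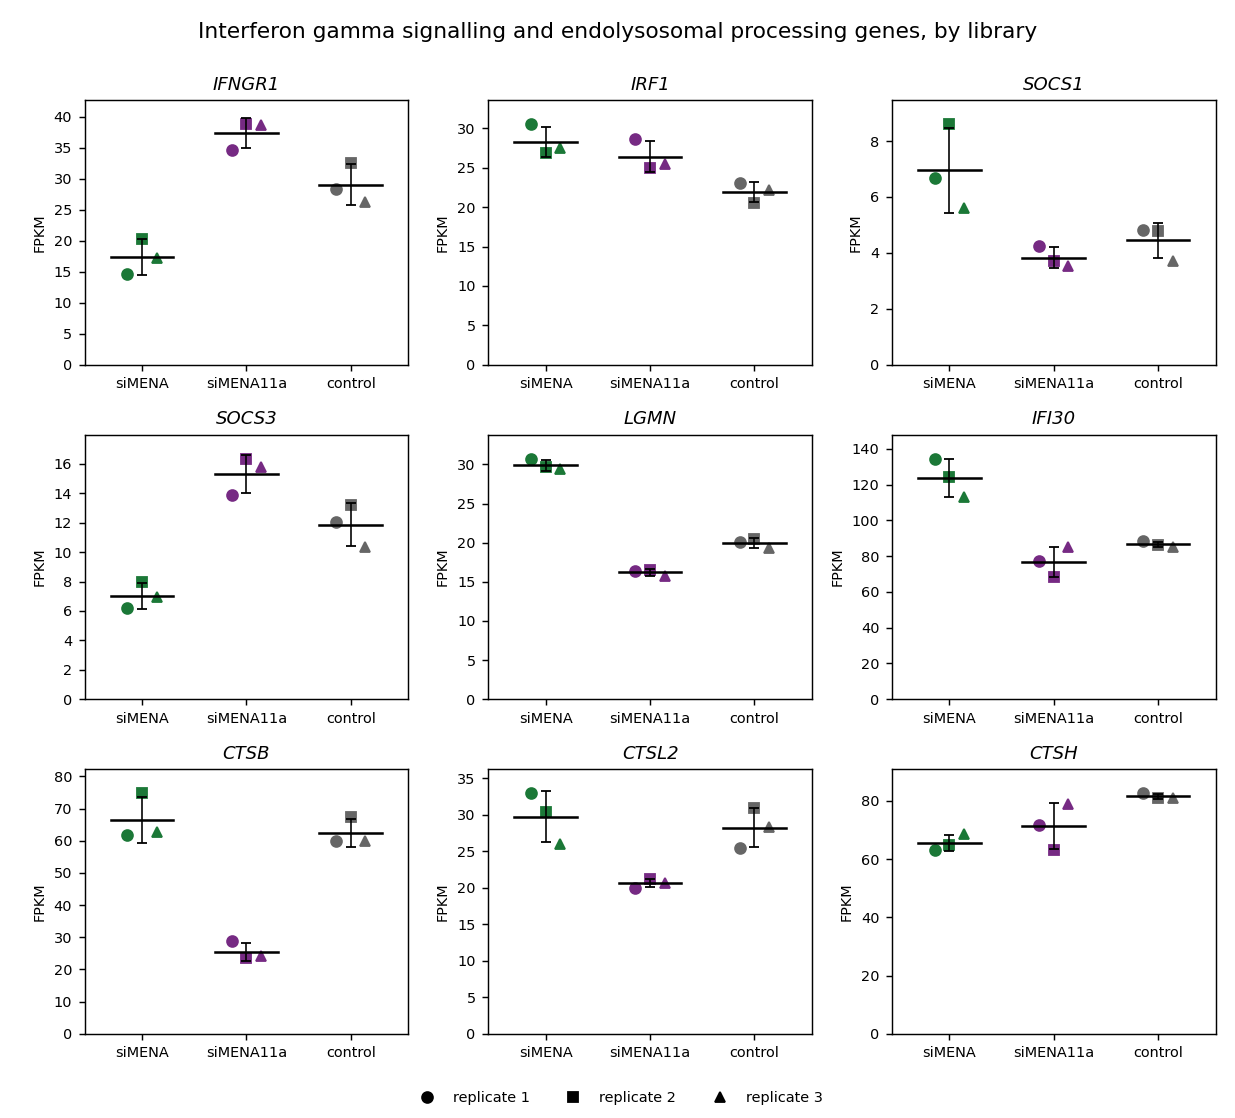
Level in FPKM (vertical axis, 1 panel per gene, each starting at 0) of IFNGR1, IRF1, SOCS1, SOCS3, LGMN, IFI30, CTSB, CTSL2 and CTSH in siMENA, siMENA11a and control libraries. Circles, squares and triangles are replicates 1, 2 and 3, lines are means and bars are SD (n = 3); IFNGR1 and SOCS3 are lowest in siMENA, and LGMN and IFI30 are highest in siMENA.

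Among 16 partners of the RFX complex and cofactors of CIITA, most did not pass: in siMENA11a against control 2 fell and 14 did not pass (median -0.06), in siMENA against control 1 rose and 1 fell (median 0.06), and in siMENA11a against siMENA 1 rose and 5 fell (median -0.11). For all genes tested the shares higher and lower were 8.16% and 11.3%, 10.3% and 8.24%, and 14.4% and 22.2% in the same order. NF-Y, the Y box factor, had none of its 3 subunit genes NFYA, NFYB and NFYC past the threshold of limma in any comparison, and 1 of them, NFYB, had an unadjusted p under 0.05 in 1 comparison (0.0308 in siMENA11a against control). ATF1, a factor of the cyclic AMP element next to the X box, averaged 13.8 FPKM in siMENA11a, 21.4 FPKM in siMENA and 20.5 FPKM in control, and fell by 0.53 in siMENA11a against control (adjusted p = 0.000191). The histone acetyltransferase KAT2B averaged 13.9 FPKM in siMENA11a, 9.47 FPKM in siMENA and 15.6 FPKM in control, and fell by 0.66 in siMENA against control (0.000187). EZH2, a histone methyltransferase, fell by 0.45 in siMENA11a against control (0.0138, and 0.0692 without replicate 2 in all groups).

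Genes of class I presentation share the RFX-bound promoter module, with NLRC5 in the place of CIITA. Of 6 tested, 4 rose in siMENA11a against control (median 0.55) and 3 in siMENA11a against siMENA (median 0.66). Over all genes tested, 8.16% and 14.4% were called higher in these comparisons. The 6, and so the medians, include NLRC5 itself, and HLA-B and HLA-C, which differed 39.0-fold or more between libraries within each knockdown group. In siMENA against control limma called 0 of 6, with 1 at an unadjusted p under 0.05. There 10.3% of all genes were called higher and 8.24% lower, B2M differed by -0.07 (adjusted p = 0.704) and NLRC5 by 0.15 (0.282). B2M, the light chain of class I, averaged 1781 FPKM in siMENA11a, 1053 FPKM in siMENA and 1102 FPKM in control, and rose by 0.69 in siMENA11a against control (adjusted p = 0.00208). NLRC5 averaged 3.64 FPKM in siMENA11a, 2.63 FPKM in siMENA and 2.25 FPKM in control, and rose by 0.51 in siMENA11a against control (0.00525).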

How the data were processed

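RNA was measured in 9 libraries of 3 groups, grouped by their labels. The authors deposited FPKM values for 16630 genes; the submitters' processing notes name hg19, and for aligner, quantifier and annotation the sources used here give none. FPKM values hold no read counts, so depth is unknown and no counting error can be given; the FPKM sums were 558754 to 592930. The deposited FPKM values include 11524 (7.91%) that had lost their decimal point, being whole numbers over 100 times their gene's median (or in genes with no decimal value); these were divided by 1000, among them 1 of HLA-DRA and 2 of RFX5. The 1286 genes lacking a value in any library were not tested.

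Those averaging 0.5 FPKM or more (13273) were compared as log2(FPKM + 1) with limma 3.58.1 in R 4.3.3, in one fit over 9 libraries with a mean-variance trend and group as the only term. Benjamini-Hochberg adjustment ran over all genes tested, with a threshold of 0.05. Tables were handled in Python 3.11.15. P-values set each difference between groups against the spread between these libraries, an estimate that limma moderates across genes. On data simulated for siMENA against control (13273 genes), the fit called 96 of 100 genes changed by 1, 67 of 100 changed by -0.5 and 7 of 13073 unchanged genes. The simulated noise was independent between libraries, without the variation that same-numbered libraries share here, and far fewer genes were changed than were called. These rates therefore need not hold for the measured data.

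Members, lists and tests were chosen with earlier results of these data known. Every member is named; from each other list, at most 4 passing genes per comparison with the largest change were candidates for naming, and other genes or comparisons named were chosen after their values were seen. Some candidates are not reported here. The 5 genes most like CD74 and CIITA were ranked by Pearson r, with small RNA genes and clone-based or similar names passed over. Deviations from group means correlated between same-numbered siMENA and control libraries at 0.124, 0.378 and 0.196. Some differently numbered libraries also correlated, as siMENA replicate 3 and control replicate 1 (0.113) or siMENA11a replicate 3 and control replicate 1 (0.321). Pairing is thus uncertain and is not stated by the labels, so the replicate number entered only the alternative fit with a block. Alternatives were another pseudocount, filter, scaling, fit and repair, the replicate block, and leaving out libraries.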

Additional observations from a re-analysis of the deposited data

How the results depend on the processing

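Over the alternatives tried, 344 of the members' recomputed differences kept their direction and side of the threshold, 28 lost the call, 8 gained it and 16 turned sign. Without the genes that held a repaired value, which removes HLA-DRA and RFX5, 1362 genes passed in siMENA11a against control, 1293 in siMENA against control, 2716 in siMENA11a against siMENA and 2943 in the F test (main counts 2583, 2463, 4857 and 5345), and 3 members passed in siMENA11a against siMENA and in the F test (5 each). Leaving out 1 library gave 1493 to 2390, 1346 to 2020, 3626 to 4814 and 4008 to 5388 genes, and 2 to 4, 1 to 2, 3 to 4 and 3 to 5 members; the lowest counts were those without control replicate 3 in siMENA11a against control (1493) and without siMENA replicate 1 in siMENA against control (1346; the count was 1446 when control replicate 3 was dropped, 1555 when control replicate 1 was, and 1572 when siMENA replicate 2 was). Leaving replicate 2 out of all 3 groups gave 1641 genes in siMENA11a against control and 1614 in siMENA against control, and for members 0 by limma in siMENA against control (2 at an unadjusted p under 0.05) and 3 in the F test. A filter at a mean of 2 FPKM, which removes CTSS, left 1 member in siMENA against control. With the replicate block, 5 members passed in siMENA11a against control (CD74 at an adjusted p of 0.03 and RFX5 at 0.0226 in addition). Same-numbered siMENA11a and control libraries correlated at 0.206, 0.425 and -0.0302, and siMENA11a and siMENA libraries at 0.0863, 0.309 and 0.0203. The replicate 2 libraries thus varied together most, and the other numbers less or not at all. Beside HLA-DRA in siMENA against control (0.0325), the replicate block brought CD74 past the threshold in the F test (0.0376, against 0.181 without it; 6 members in place of 5) and changed no other member's call.

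The differences that turned sign were small and did not pass. HLA-DQB1 in siMENA against control ran from -0.11 to 0.22 with 1 library left out and was -0.015 without replicate 2 in all groups. The same range was -0.0205 to 0.427 for CD74 in siMENA11a against siMENA and -0.00335 to 0.0975 for RFX5 in siMENA against control. RFXAP ran from -0.0276 to 0.0879 in siMENA11a against control, -0.0333 to 0.0974 in siMENA against control and -0.067 to 0.0637 in siMENA11a against siMENA. RFXANK in siMENA11a against control ran from -0.0606 to 0.0618, and was 0.00081 with median-ratio scaling and 0.0052 with quantile normalization. HLA-DQB1 in siMENA11a against control also lost its call with no filter (0.0604), with only the 2 groups in the fit (0.0585), with missing values read as 0 (0.0507) and with no mean-variance trend (0.0532), and against siMENA with no filter (0.0638), with missing values read as 0 (0.0541) and with no trend (0.056); the cause was not tested. Of the genes called, 58.1% were lower in siMENA11a against control, 44.4% in siMENA against control and 60.5% in siMENA11a against siMENA; these shares were 53.3%, 56.2% and 50.1% with median-ratio scaling and 50.9%, 52.0% and 50.9% with quantile normalization. Total depth is unknown, so levels under about 0.5 FPKM carry no stated precision.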

Other observations

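Genes for the traffic of class II and for the partners of CD74 were measured beside the members. Of 12 listed, 11 were tested. None of the 11 passed in siMENA11a against control by limma, and 0 passed at an unadjusted p under 0.05 (median 0.00), 1 rose and 1 fell in siMENA against control (median -0.08), and 3 rose and 1 fell in siMENA11a against siMENA (median 0.13). Of all genes tested, the shares called higher and lower were 8.16% and 11.3%, 10.3% and 8.24%, and 14.4% and 22.2% in turn. RILP, which links late endosomes to dynein, fell by 0.55 in siMENA11a against siMENA (adjusted p = 0.00738, and 0.0619 without replicate 2 in all groups). MARCH1, a ubiquitin ligase that removes class II from the cell surface, rose by 0.32 in the same comparison (0.0404), a call lost in 5 of the 6 settings that left out 1 library, at up to 0.128.

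Some epithelial markers differed between the groups, while EPCAM and KRT19 passed in no comparison. Of 6 tested, 3 fell in siMENA11a against control, 1 fell in siMENA against control, and 1 rose and 3 fell in siMENA11a against siMENA. Across all genes tested, 11.3% were called lower in the first comparison and 8.24% in the second. In the last, 14.4% were called higher and 22.2% lower. CDH1, the adhesion molecule E-cadherin, fell by 0.42 in siMENA11a against control (limma adjusted p = 0.00196) and by 0.52 against siMENA (0.000217). KRT18, a keratin of simple epithelia, fell by 0.40 in siMENA11a against control (0.0102). KRT7 fell by 0.41 in siMENA against control (0.0059) and rose by 0.48 in siMENA11a against siMENA (0.00102). The summed level of the 8 listed markers ran from 3939 to 4425 FPKM in siMENA11a, 4693 to 4893 FPKM in siMENA and 4820 to 5135 FPKM in control, below both other groups in every siMENA11a library.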
